A study of Mus musculus with 13 samples.

Results

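The chemokine genes described here are Ccl2, Ccl3, Ccl4, Ccl6, Ccl9, Ccl12, Cxcl10, Cxcl12, Cxcl16 and Cx3cl1, 10 of the 53832 gene entries of the deposited expression table. They were chosen by gene name, and each name stood on 1 entry. Their RNA was measured by poly(A) RNA sequencing of the dissected right cortex of perfused mice. Distilled water was given to the WT mice (6 libraries) and to 1 group of APP/PS1 mice (3 libraries), and trazodone to another APP/PS1 group (4 libraries). The sample titles give 2 weeks for every group. APP/PS1 mice carry transgenes for amyloid precursor protein and presenilin 1 and form amyloid plaques, and trazodone is a prescribed antidepressant. The labels do not name the APP/PS1 line or the promoters of its transgenes, nor the age, sex or dose, and no WT mice given trazodone are among the 13 libraries. Levels are TPM, the transcript share of a gene after scaling by its length and the library total, so levels of different genes can be compared. A mention of replicate error means the spread between these libraries, since the labels do not say that each came from a separate animal.

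Chemokines are small secreted proteins that guide migrating cells through G-protein-coupled receptors. Inflammatory chemokines are made on demand by microglia, astrocytes and infiltrating immune cells, and homeostatic chemokines are made all the time. In the brain, neurons display Cx3cl1 (fractalkine) to the microglial receptor Cx3cr1, and endothelial and mural cells are known sources of Cxcl12. Ccl3, Ccl6 and Ccl9 act on Ccr1, Ccl2 and Ccl12 on Ccr2, Cxcl10 on Cxcr3, Cxcl16 on Cxcr6, and Cxcl12 on Cxcr4 and the scavenging receptor Ackr3.

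The libraries held an estimated 31.16 to 37.52 M fragments each (M, 1e6). The App entry, which can collect reads of the transgene, was 745 to 1008 TPM in WT, 1714 to 2066 in APP/PS1 water and 2513 to 2921 in APP/PS1 trazodone. Neuronal markers were abundant in every library, with 5417 to 6794 TPM summed over 8 genes. Transcripts of choroid plexus, a tissue next to but not part of cortex, stood apart in 2 WT libraries: their 4 markers summed to 2201 TPM in WT library 6 and 485 TPM in WT library 3, against at most 28.8 TPM elsewhere. GC-rich genes read lower in APP/PS1 water, with a slope of -0.195 ± 0.0365 (SD, n = 3) in log2 units per 10 points of GC, against 0.0390 ± 0.0493 (n = 6) in WT and 0.0881 ± 0.0506 (n = 4) with trazodone. Each fold change below comes from limma on log2(TPM + 0.5) with Benjamini-Hochberg adjustment over 18612 genes, and "called" means an adjusted p under 0.05. Fold changes of low genes are understated on that scale. In bulk tissue, fewer cells of a type and less RNA per cell cannot be told apart.

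In WT cortex the homeostatic pair dominated. Cx3cl1 stood at 92.0 ± 16.0 TPM (SD, n = 6) and Cxcl12 at 33.9 ± 5.56 TPM, and together they made up 95.04% ± 2.26 of the summed TPM of the 10 genes. Each library ranked Cx3cl1 above Cxcl12 and Cxcl12 above all others. The remaining genes followed from Cxcl16 at 1.48 ± 0.459 TPM through Ccl6, Cxcl10, Ccl12, Ccl2, Ccl9 and Ccl3 to Ccl4 at 0.173 ± 0.247 TPM. Neighbours in that lower part of the order overlapped library by library.

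In APP/PS1 cortex given water, 6 of the 9 chemokine genes tested were called higher and 0 lower (0 also at an unadjusted p under 0.05): Ccl3, Ccl6, Ccl4, Cxcl10, Cxcl16 and Ccl9. Of all 18612 genes tested, 6.19% were called higher and 17.5% lower. Ccl2 averaged under the minimum of 0.5 TPM and was not among the 9. The median log2 fold change of the 9 was 1.51, beside -0.10 over all genes. With median-ratio scaling the split over all genes was 1972 higher and 2095 lower, in place of 1153 and 3260, and the same 6 chemokine genes were called. The 8 genes other than Cxcl12 and Cx3cl1 summed to 3.996 to 11.15 TPM in WT, 45.1 to 78.8 TPM in APP/PS1 water and 27.6 to 59.1 TPM in APP/PS1 trazodone. The homeostatic pair made up 64.1% ± 5.92 (SD, n = 3) of the summed TPM in APP/PS1 water and 74.6% ± 6.58 (n = 4) with trazodone.

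**Figure D1:**
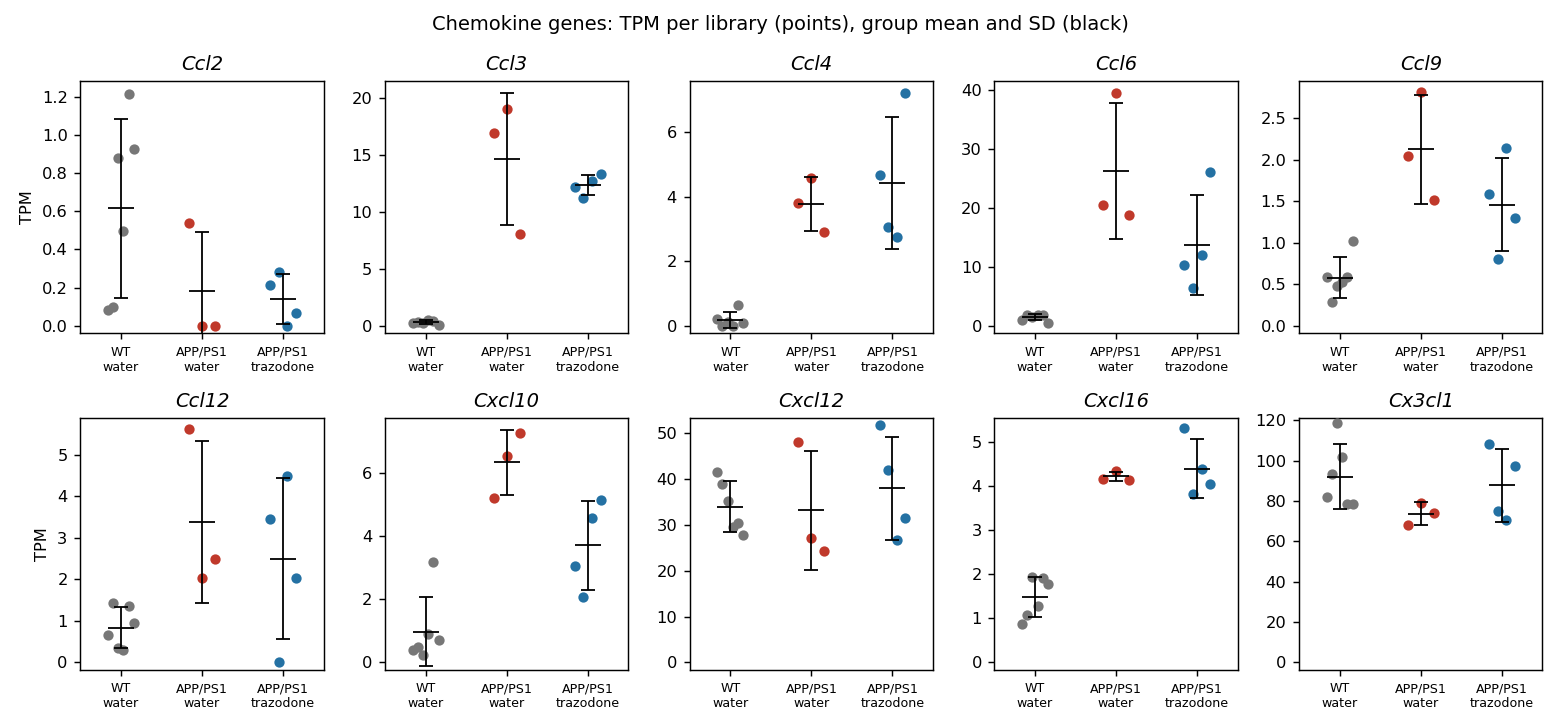
TPM of each chemokine gene (vertical axis, linear, a separate scale per gene) in each library (points) of the 3 groups, with the group mean and SD in black. Ccl3, Ccl4, Ccl6, Ccl9, Ccl12, Cxcl16 and Cxcl10 lie above every WT library in all 3 APP/PS1 water libraries. The groups overlap for Ccl2, Cxcl12 and Cx3cl1.

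Among the macrophage inflammatory proteins and the related Ccr1 ligands, Ccl3 (macrophage inflammatory protein 1 alpha) changed most. The gene (entry MSTRG.3950) lies at chr11:83647844-83649355 on the minus strand in GRCm38. Its TPM ran from 0.0855 through a median of 0.296 to 0.532 in the WT libraries. With water, the APP/PS1 libraries gave 16.9, 19.0 and 8.08 TPM, and the trazodone libraries 12.2, 11.2, 12.7 and 13.3 TPM. Every APP/PS1 library was above every WT library, and the trazodone values fell inside the range of the water values. In estimated fragments the WT libraries held 0.767 to 5.12, so the WT level rests on very few reads, and the APP/PS1 water libraries held 77.1 to 178. The log2 fold change of APP/PS1 water against WT was 4.17 ± 0.24 (SE), 18.0-fold on the TPM + 0.5 scale (limma adjusted p = 1.72e-07). Trazodone against water gave -0.15 ± 0.26 with a 95% interval of -0.71 to 0.40 (adjusted p = 0.738). Trazodone against WT gave 4.01 ± 0.22 (adjusted p = 9.05e-08).

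The windows before the start sites are shown for the called genes that have one in RefSeq (GRCm38.p6), because these genes moved together. Each holds the 250 bases before the annotated start, 5′ to 3′, with any searched motif in capitals. The motifs searched, on both strands, were the NF-kB site by its usual consensus and the interferon-stimulated response element (ISRE), which is GAAA repeated after a gap of 2 bases. The AP-1 site was TGANTCA and the PU.1 site was GAGGAAGT. The C/EBP site was searched as TTGCNNAA, and the GAS site as TTCNNNGAA. The TATA box was TATAAA, left in lower case below. None of the 7 was present in the Ccl3 window, at chr11:83649379-83649628 on the minus strand.
Ccl3: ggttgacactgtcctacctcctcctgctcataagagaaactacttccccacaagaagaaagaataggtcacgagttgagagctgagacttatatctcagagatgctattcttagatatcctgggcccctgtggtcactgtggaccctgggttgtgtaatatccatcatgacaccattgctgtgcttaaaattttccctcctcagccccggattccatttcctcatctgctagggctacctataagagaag

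Ccl4 (macrophage inflammatory protein 1 beta, entry MSTRG.3951) lies 13.2 kb from Ccl3 on the plus strand at chr11:83662584-83664683. It was listed at 0 to 0.654 TPM in WT with a median of 0.0944. In APP/PS1 water the libraries gave 3.81, 4.59 and 2.91 TPM and the trazodone libraries 4.67, 3.05, 2.76 and 7.23 TPM. No APP/PS1 library came down to the highest WT value. Ccl4 had a log2 fold change of 2.71 ± 0.31 in APP/PS1 water against WT (limma adjusted p = 5.04e-05) and 2.85 ± 0.28 in trazodone against WT (adjusted p = 3.06e-05). Trazodone against water was 0.14 ± 0.33 with a 95% interval of -0.57 to 0.85 (adjusted p = 0.822). The log2(TPM + 0.5) difference of Ccl3 minus Ccl4 was 1.76 ± 0.374 (SD, n = 3) in APP/PS1 water and 1.47 ± 0.514 (n = 4) with trazodone, so the level of Ccl3 stood above that of its neighbour in both.

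Ccl6, a mouse chemokine of the Ccr1 ligand group (entry MSTRG.3949), lies at chr11:83587882-83593087 on the minus strand. WT libraries ran from 0.527 through 1.66 to 1.86 TPM. With water, the APP/PS1 libraries gave 20.4, 39.5 and 18.7 TPM, and the trazodone libraries 10.4, 6.35, 11.99 and 26.0 TPM. All APP/PS1 libraries were above WT. With trazodone 3 of 4 libraries were below every water library, and library 4 was inside their range. APP/PS1 water against WT gave a log2 fold change of 3.77 ± 0.38 (limma adjusted p = 2.04e-05), 13.7-fold on the TPM + 0.5 scale. Trazodone against WT gave 2.76 ± 0.35 (adjusted p = 0.000302).

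Ccl6 had the largest fitted difference of the 10 genes between trazodone and water, and it was not called. Its log2 fold change was -1.01 ± 0.41 with an unadjusted 95% interval of -1.89 to -0.13 (limma adjusted p = 0.115). Without trazodone library 4 the value was -1.37 (adjusted p = 0.0246), which was called. With all libraries kept and each given its own weight (array weights), Ccl6 was also called, at -1.49 (limma adjusted p = 0.0114). No other alternative called it.

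Ccl9, also of the Ccr1 ligand group (entry MSTRG.3947), lies 9.24 kb from Ccl6 at chr11:83572919-83578636 on the minus strand. WT libraries ran from 0.284 through 0.552 to 1.02 TPM. In APP/PS1 water the libraries gave 2.04, 2.82 and 1.51 TPM and the trazodone libraries 1.59, 0.804, 2.14 and 1.30 TPM. The water libraries were all above WT, and trazodone library 2 fell within the WT range. APP/PS1 water against WT gave 1.28 ± 0.25 on the log2 scale (limma adjusted p = 0.00244), trazodone against water -0.44 ± 0.27 with a 95% interval of -1.02 to 0.15 (adjusted p = 0.310), and trazodone against WT 0.84 ± 0.23 (adjusted p = 0.0853). The last was called without WT library 6 (0.95, adjusted p = 0.0441) or without trazodone library 2 (1.02, adjusted p = 0.0408), and with all libraries after correction for GC and length (0.87, adjusted p = 0.0487).

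The windows before Ccl6 (chr11:83593088-83593337, minus strand) and Ccl9 (chr11:83578637-83578886, minus strand) were aligned together with the 50 bases after each start site. Identity over the aligned positions was 71.1%, beside 54.7% to 65.5% for the other pairs among the 7 windows extended in this way. The Ccl9 window held an NF-kB match on the reverse strand at -35 and an AP-1 match at -53, counted from the start site, and TATA matches at -224, -94 and -92. None of the 7 motifs was found in the Ccl6 window. Among 27025 promoter windows of the same length, 7.01% held an NF-kB match and 6.87% an AP-1 match, and the shares were 2.44% for PU.1, 9.55% for C/EBP, 7.18% for GAS and 13% for TATA.
Ccl6: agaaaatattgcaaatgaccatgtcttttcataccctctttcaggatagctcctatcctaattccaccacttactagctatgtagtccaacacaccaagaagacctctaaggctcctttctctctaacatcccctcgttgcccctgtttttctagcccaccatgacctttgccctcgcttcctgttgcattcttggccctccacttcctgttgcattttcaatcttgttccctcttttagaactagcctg
Ccl9: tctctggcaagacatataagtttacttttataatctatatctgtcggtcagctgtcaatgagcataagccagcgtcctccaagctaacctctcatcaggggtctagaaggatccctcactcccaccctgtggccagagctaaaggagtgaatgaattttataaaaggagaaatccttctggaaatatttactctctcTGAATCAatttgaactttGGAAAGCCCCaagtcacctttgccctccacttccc

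Cxcl10 (interferon gamma-induced protein), a Cxcr3 ligand that attracts T cells, lies at chr5:92346638-92348889 on the minus strand (entry MSTRG.17347). WT libraries ran from 0.227 through 0.594 to 3.18 TPM. With water, the APP/PS1 libraries gave 5.23, 6.54 and 7.28 TPM and the trazodone libraries 3.05, 2.07, 4.58 and 5.14 TPM. All water libraries were above WT. All trazodone libraries were below all water libraries, and 2 of the 4 were below the highest WT library, WT 5.

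Cxcl10 was called in APP/PS1 water against WT with a log2 fold change of 2.44 ± 0.41 (limma adjusted p = 0.000913), and 2.75 without WT library 5. Trazodone against WT gave 1.68 ± 0.38 (adjusted p = 0.0315), a call lost when any of 8 libraries was left out (adjusted p = 0.0547 to 0.122), among them WT libraries 1, 2, 3, 4 and 6 and trazodone libraries 1, 3 and 4. It was also lost without WT libraries 3 and 6 together (adjusted p = 0.129). Trazodone against water gave -0.76 ± 0.45 with a 95% interval of -1.72 to 0.20 (adjusted p = 0.284), which was not called although the groups did not overlap. Of all genes tested, 8.35% were lower with trazodone with no overlap and 18.1% higher, and Cxcl10 was the 1 of 9 chemokine genes in that state. The Art3 gene overlaps Cxcl10 and has an entry of its own, with a log2 fold change of 0.38 ± 0.30 in APP/PS1 water against WT (adjusted p = 0.395).

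The Cxcl10 window (chr5:92348890-92349139, minus strand) held several matches close together. There were NF-kB matches at -159, -104 and -103, of which the last 2 overlap, an ISRE match at -213 and an AP-1 match at -74. ISRE matches were present in 3.04% of the 27025 windows. A match describes the letters of this window, and binding was not measured.
Cxcl10: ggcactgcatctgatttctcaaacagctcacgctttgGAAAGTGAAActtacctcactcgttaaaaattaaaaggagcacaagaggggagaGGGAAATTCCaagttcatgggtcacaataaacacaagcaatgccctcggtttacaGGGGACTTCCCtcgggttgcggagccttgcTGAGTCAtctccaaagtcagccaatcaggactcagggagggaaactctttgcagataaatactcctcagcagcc

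Cxcl16, a membrane-bound ligand of Cxcr6 that can be shed (entry MSTRG.3687), lies at chr11:70453983-70459984 on the minus strand. WT libraries ran from 0.881 through 1.54 to 1.93 TPM. The APP/PS1 water libraries gave 4.16, 4.34 and 4.14 TPM and the trazodone libraries 5.32, 3.82, 4.38 and 4.05 TPM. The APP/PS1 values were close together and all above WT. Cxcl16 had a log2 fold change of 1.29 ± 0.19 in APP/PS1 water against WT (limma adjusted p = 0.000377) and 1.33 ± 0.18 in trazodone against WT (adjusted p = 0.000485). Trazodone against water gave 0.04 ± 0.21 with a 95% interval of -0.40 to 0.49 (adjusted p = 0.914). Zmynd15 overlaps Cxcl16, and its own entry gave 0.16 ± 0.16 in APP/PS1 water against WT (adjusted p = 0.514).

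The Ccr2 ligands Ccl2 and Ccl12 were low and variable. Ccl2 (monocyte chemoattractant protein 1, entry ENSMUSG00000035385.5, chr11:82035571-82037453, plus strand) gave 0.0800 to 1.21 TPM in WT with a median of 0.688. The APP/PS1 water libraries gave 0.540, 0 and 0 TPM and the trazodone libraries 0.213, 0.283, 0 and 0.0652 TPM. No APP/PS1 library exceeded the WT median, and the highest held an estimated 6.78 fragments. In a fit with a minimum of 0.1 TPM, where 4.77% of 24112 genes were called higher and 12.6% lower, Ccl2 gave -0.68 ± 0.36 in APP/PS1 water against WT (limma adjusted p = 0.230). In the same fit trazodone against water gave -0.02 ± 0.39 with a 95% interval of -0.86 to 0.82 (adjusted p = 0.986), beside 8.70% of genes called higher and 2.53% lower. Trazodone against WT gave -0.70 ± 0.33 (adjusted p = 0.437), beside 1.46% called higher and 0.158% lower.

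Ccl12 (monocyte chemoattractant protein 5 of the mouse, entry MSTRG.3917, chr11:82101845-82103400, plus strand) lies 64.4 kb from Ccl2. WT libraries ran from 0.307 through 0.797 to 1.42 TPM, the APP/PS1 water libraries gave 5.61, 2.04 and 2.498 TPM, and the trazodone libraries gave 3.45, 0, 4.48 and 2.04 TPM. All APP/PS1 libraries except trazodone library 2, which was listed at 0, were above WT. The log2 fold change of 1.51 ± 0.59 in APP/PS1 water against WT was not called (limma adjusted p = 0.0803). It was called without trazodone library 2, at the same value with a smaller shared spread (adjusted p = 0.00938), with only the 2 groups compared (adjusted p = 0.0145) and with the FPKM table (1.11, adjusted p = 0.0475). Trazodone against WT gave 0.82 ± 0.54 (adjusted p = 0.550), and 1.55 without that library (adjusted p = 0.0492). Trazodone against water gave -0.69 ± 0.64 with a 95% interval of -2.06 to 0.68 (adjusted p = 0.516), and 0.034 without that library (adjusted p = 0.973).

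The homeostatic ligands were not called in any comparison. Cxcl12 (stromal cell-derived factor 1, entry MSTRG.19392, chr6:117168535-117181367, plus strand) gave 27.8 to 41.5 TPM in WT with a median of 32.8. The APP/PS1 water libraries gave 48.1, 27.2 and 24.3 TPM and the trazodone libraries 51.7, 41.9, 26.7 and 31.4 TPM. The 3 groups overlapped widely. The log2 fold change of -0.08 ± 0.23 in APP/PS1 water against WT (limma adjusted p = 0.833) turned positive with median-ratio scaling (0.02), with the FPKM table (0.01) and with quantile normalization (0.04). Trazodone gave 0.21 ± 0.25 against water with a 95% interval of -0.32 to 0.74 (adjusted p = 0.615) and 0.13 ± 0.21 against WT (adjusted p = 0.831).

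Cx3cl1 (entry MSTRG.22607, chr8:94772009-94782427, plus strand) gave 78.3 to 119 TPM in WT with a median of 87.4. The APP/PS1 water libraries gave 67.9, 79.0 and 74.1 TPM and the trazodone libraries 108, 74.8, 70.6 and 97.3 TPM. In APP/PS1 water 2 of the 3 libraries were below every WT library, and the third was within the WT range. The log2 fold change was -0.30 ± 0.15 with a 95% interval of -0.63 to 0.02 (limma adjusted p = 0.165). The transcript is 57.1% GC, and after correction for GC and length the value was -0.02. Trazodone gave 0.23 ± 0.16 against water with a 95% interval of -0.12 to 0.58 (adjusted p = 0.378), or -0.07 after that correction, and -0.07 ± 0.14 against WT (adjusted p = 0.863). Neuronal markers moved in the same comparisons, where many genes of any kind did. In APP/PS1 water against WT, 4 of 8 were called lower, beside 17.5% of all genes. With trazodone against water 4 of 8 were called higher, beside 12.5% of all genes. After correction for GC and length, the calls over all genes fell from 3260 lower to 1150 and from 2319 higher to 476. The part of neuronal markers in the Cx3cl1 values was not tested.

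**Figure D2:**
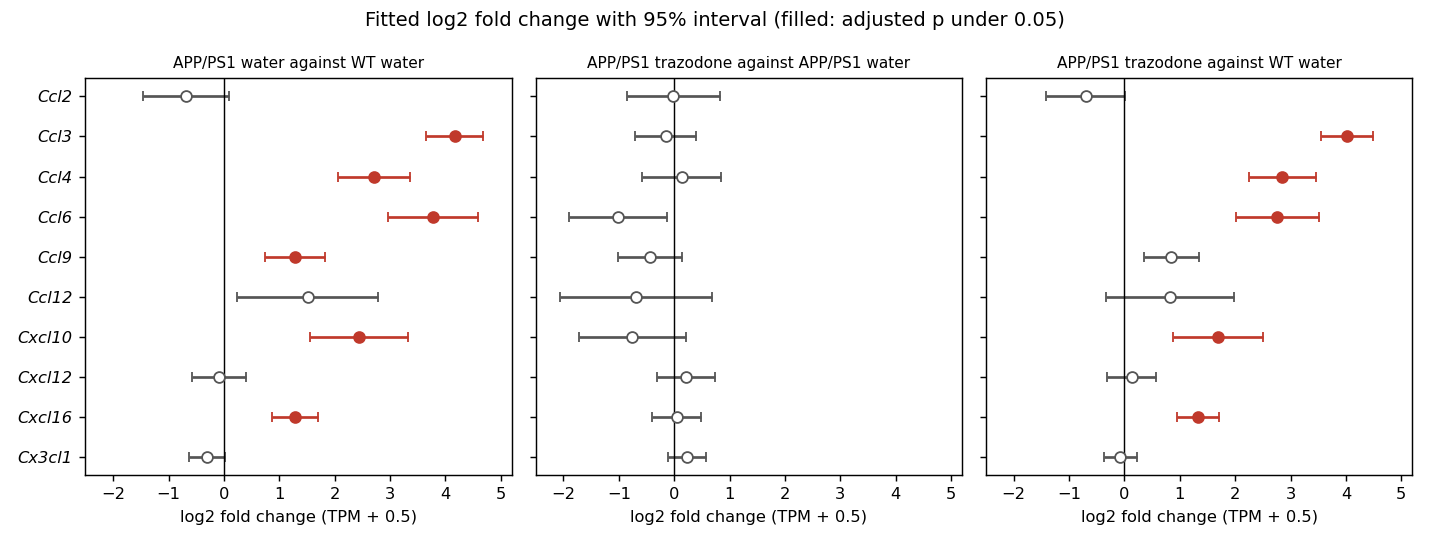
Fitted log2 fold change (horizontal axis) of each chemokine gene with its 95% interval in the 3 comparisons; filled red points have an adjusted p under 0.05. The 6 called genes lie between 1.28 and 4.17 in APP/PS1 water against WT water, and no gene is called in trazodone against water.

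In trazodone against APP/PS1 water as a whole, 0 of the 9 chemokine genes tested were called in either direction with limma, against 12.5% of all genes called higher and 3.92% called lower. Ccl6 alone reached an unadjusted p under 0.05. The lower end of the 95% interval was under zero for all 10 genes and the upper end was above zero for all but Ccl6. In trazodone against WT, 5 of the 9 were called higher, Ccl3, Ccl4, Ccl6, Cxcl16 and Cxcl10, against 1.97% of all genes, and 0 lower, against 0.258%. The comparisons share libraries, so their values are side by side and not independent. In APP/PS1 water against WT, 7 of the 9 had no overlap and were higher, against 6.55% of all genes, and 0 were lower, against 16.5%. In trazodone against WT 4 of the 9 were higher with no overlap, against 3.25%, and 0 lower, against 1.83%.

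Microglial markers moved with these genes. Of 12 markers, 9 were called higher in APP/PS1 water against WT and 9 in trazodone against WT, beside 6.19% and 1.97% of all genes. The summed TPM of the markers was 318 to 403 in WT, 842 to 1028 in APP/PS1 water and 737 to 847 with trazodone. The mean log2(TPM + 0.5) of the 12 was 4.08 ± 0.14 (SD, n = 6) in WT, 5.23 ± 0.14 (n = 3) in APP/PS1 water and 5.05 ± 0.07 (n = 4) with trazodone. Each gene was therefore also expressed relative to that mean in its own library and compared with an exact two-sided permutation test, 10 genes in each of 3 comparisons with p unadjusted over the 30 tests.

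Relative to the microglial markers, Ccl3, Ccl6 and Ccl4 were still higher in APP/PS1 water than in WT. The differences were 3.02 for Ccl3, 2.62 for Ccl6 and 1.56 for Ccl4 in log2 units, each with no overlap between the groups (exact permutation p = 0.0119, the smallest that 84 splits allow). Cxcl10 gave 1.29 (exact permutation p = 0.0595), and 1.56 without WT library 5 (exact permutation p = 0.0179). Cxcl16 at 0.14 (exact permutation p = 0.619), Ccl9 at 0.13 (p = 0.583) and Ccl12 at 0.36 (p = 0.417) differed by less than the spread between libraries. Both Cxcl16 and Ccl9 turned negative with a pseudocount of 1 (-0.03 and -0.14).

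Cxcl12 and Cx3cl1 were lower relative to the markers, by -1.23 and -1.45, as the markers rose and these genes were not called (each exact permutation p = 0.0119). Ccl2 gave -1.83 (exact permutation p = 0.0119), and -1.56 without WT libraries 3 and 6 (exact permutation p = 0.0571). In trazodone against WT the values were 3.05 for Ccl3, 1.88 for Ccl4 and 1.80 for Ccl6 (each exact permutation p = 0.00476, the smallest that 210 splits allow). In the other direction Cx3cl1 gave -1.04 and Cxcl12 -0.84 (each exact permutation p = 0.00476), and Ccl2 gave -1.67 (exact permutation p = 0.00952), with no overlap between the groups. Cxcl10 gave 0.72 (exact permutation p = 0.148) and 0.98 without WT library 5 (p = 0.0238). The marker mean itself was at most 4.31 in WT and at least 4.98 in APP/PS1, so a gene with a flat level comes out lower here. Cx3cl1, Cxcl12 and Ccl2 were not called against WT, so their lower values here do not show a fall of these genes. In trazodone against water no gene reached 0.05, with Ccl6 at -0.83 (exact permutation p = 0.200) and Cxcl10 at -0.57 (exact permutation p = 0.229), where 0.0286 is the smallest p possible.

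**Figure D3:**
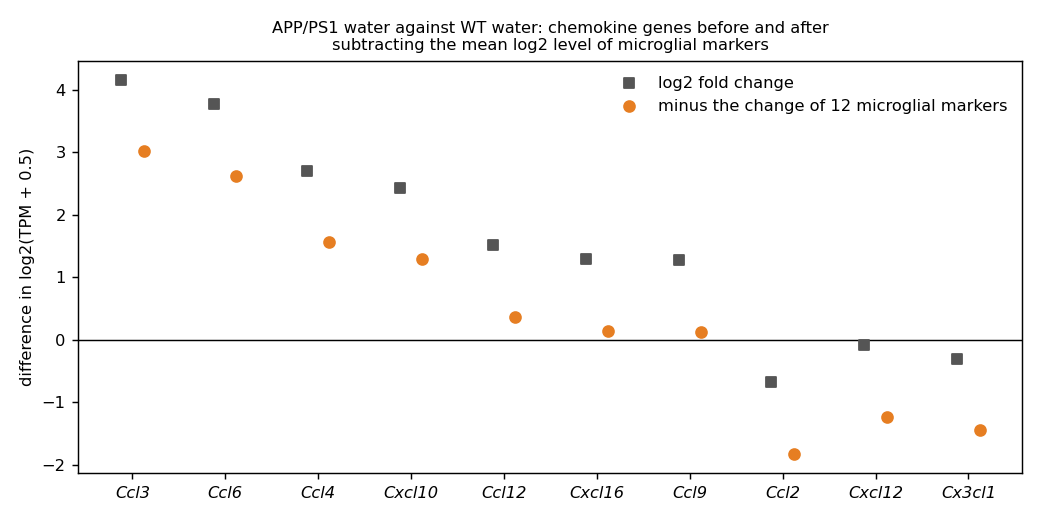
Difference in log2(TPM + 0.5) between APP/PS1 water and WT water (vertical axis) for each chemokine gene, as fitted (grey squares) and after subtracting the change of 12 microglial markers (orange points). Ccl3, Ccl6 and Ccl4 remain at 3.02, 2.62 and 1.56, while Cxcl16 and Ccl9 come to 0.14 and 0.13.

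Markers of immune cells other than microglia summed to far lower TPM. Border macrophage markers, 6 genes, had 0 calls with limma in each comparison (Pf4 alone had an unadjusted p under 0.05, in APP/PS1 water against WT) and summed to 9.23 to 20.2 TPM over the 13 libraries. Monocyte markers, 4 genes, summed to 0.311 to 15.6 TPM, and neutrophil markers, 6 genes, to 0.300 to 11.4 TPM with Ly6g at 0 in every library. T cell markers, 6 genes, summed to 3.35 to 8.58 TPM and B cell markers, 4 genes, to 0.365 to 1.56 TPM, and the groups overlapped for each list. Astrocyte markers, 7 genes, summed to 1742 to 2239 TPM over the 13 libraries, above the microglial sum. Of the 7, 3 were called higher in APP/PS1 water against WT, beside 6.19% of all genes. Endothelial, mural and fibroblast markers had none called in any comparison. Of all genes, 6.19% were called higher and 17.5% lower in APP/PS1 water against WT. The shares were 12.5% and 3.92% in trazodone against water, and 1.97% and 0.258% in trazodone against WT. Lists this short, the border macrophage list included, can hold no call at such shares. What these cell types add to the chemokine values was not tested.

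The receptors were mostly sparse. Ccr1, Ccr2, Cxcr3 and Cxcr6 averaged under 0.5 TPM and were not tested. Ccr2, the monocyte receptor, was 0.306 ± 0.155 TPM (SD, n = 6) in WT, 0.630 ± 0.165 (n = 3) in APP/PS1 water and 0.370 ± 0.0772 (n = 4) with trazodone. Cxcr3, the Cxcl10 receptor of T cells, was 0.141 ± 0.107 TPM in WT, 0.0954 ± 0.0441 in APP/PS1 water and 0.271 ± 0.155 with trazodone. The mean of Ccr1 ran from 0.231 to 0.304 TPM over the groups and that of Cxcr6 from 0.127 to 0.234 TPM. Fyco1 overlaps Cxcr6 and has no entry of its own, so the Cxcr6 values are uncertain.

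Cxcr4, the signalling receptor of Cxcl12, was called. WT libraries ran from 1.70 to 3.09 TPM with a median of 2.40, the APP/PS1 water libraries gave 4.25, 5.23 and 3.21 TPM and the trazodone libraries 4.41, 4.84, 3.43 and 4.84 TPM. Every APP/PS1 library was above WT. Cxcr4 had a log2 fold change of 0.73 ± 0.19 in APP/PS1 water against WT (limma adjusted p = 0.0133), 0.79 ± 0.17 in trazodone against WT (adjusted p = 0.0286) and 0.06 ± 0.21 in trazodone against water (adjusted p = 0.884). Its ligand Cxcl12 and the scavenger Ackr3 were not called (Ackr3 0.18 ± 0.12 in APP/PS1 water against WT, adjusted p = 0.324).

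Cx3cr1, the microglial receptor of Cx3cl1, ran from 4.27 to 16.4 TPM in WT with a median of 5.73, where WT library 6 was the highest. It was 7.12, 10.2 and 7.18 TPM in APP/PS1 water and 6.52, 11.2, 9.02 and 9.83 TPM with trazodone. All APP/PS1 libraries were above the other 5 WT libraries. The log2 fold change of 0.30 ± 0.32 was not called (adjusted p = 0.536). The annotated span of Cx3cr1 overlaps several other genes, and the deposited values do not say how shared reads were assigned. Ccr10, a skin-homing receptor, gave -0.22 ± 0.22 (adjusted p = 0.508).

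**Figure D4:**
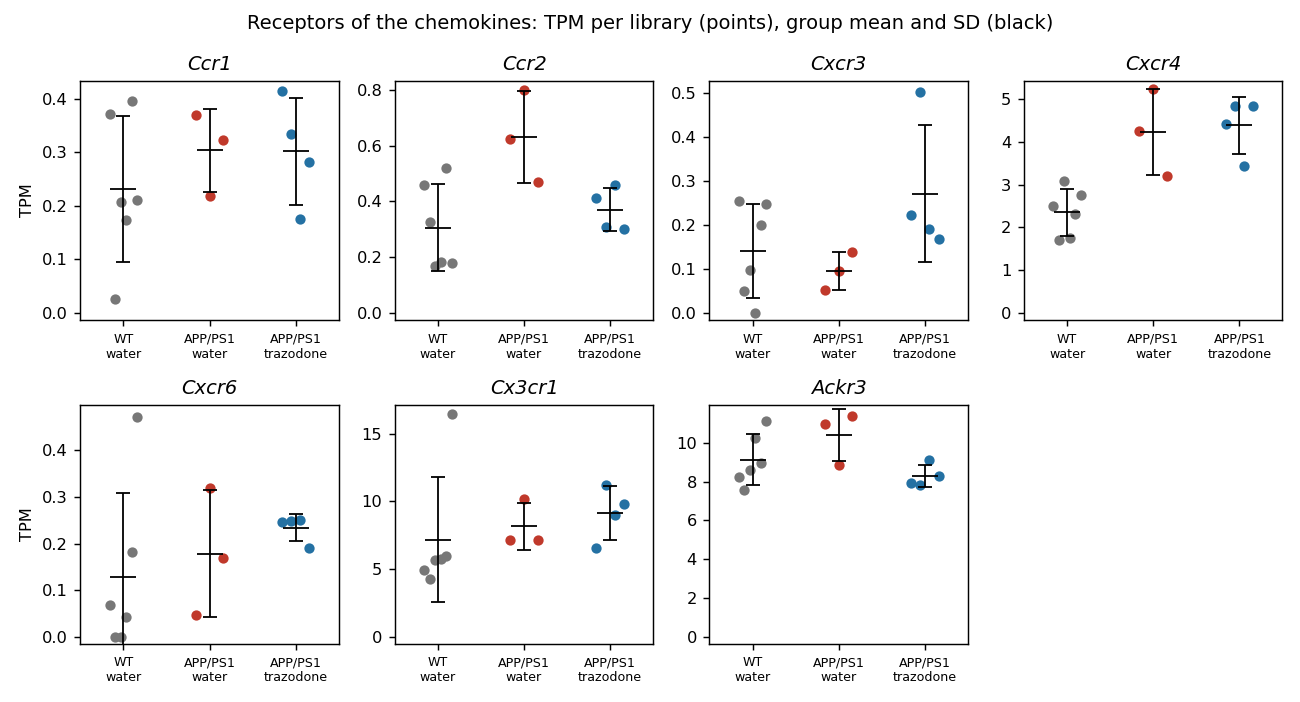
TPM of 7 receptors of these chemokines (vertical axis, linear, a separate scale per gene) in each library (points) of the 3 groups, with the group mean and SD in black. Cxcr4 is above every WT library in all 7 APP/PS1 libraries, and Ccr1, Ccr2, Cxcr3 and Cxcr6 stay under 1 TPM.

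Of the atypical receptors, which lack G-protein signalling, Ccrl2 rose from 1.02 ± 0.347 TPM in WT to 2.07 ± 0.453 in APP/PS1 water. Its log2 fold change there was 0.78 ± 0.23 (limma adjusted p = 0.0229). With trazodone Ccrl2 was 2.24 ± 0.596 TPM (0.86 ± 0.21 against WT, adjusted p = 0.0470). In APP/PS1 water against WT, Ackr1 was called lower (-0.46 ± 0.13, adjusted p = 0.0197), and not after correction for GC and length (-0.38, adjusted p = 0.0722). Cadm3, which overlaps it, has no entry of its own in the table, so the 309 TPM listed for WT cannot be assigned to Ackr1. Ackr2 at 0.15 ± 0.36 and Ackr4 at 0.35 ± 0.46 were not called (adjusted p = 0.799 and 0.627). Acad11 overlaps Ackr4 and has no entry of its own, so the Ackr4 value is uncertain. The proteases that shed or trim chemokines, Adam10, Adam17 and Dpp4, had 0 of 3 called in each comparison with limma, and 0 with an unadjusted p under 0.05. Beside them, 6.19% of all genes were called higher and 17.5% lower in APP/PS1 water against WT. For trazodone these shares were 12.5% and 3.92% against water, and 1.97% and 0.258% against WT, so 0 of 3 says little. Adam10 gave 0.20 ± 0.17, Dpp4 0.13 ± 0.15 and Adam17 0.10 ± 0.19 in APP/PS1 water against WT.

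Of 29 other chemokine ligands, 12 were tested. In APP/PS1 water against WT, 1 of the 12 was called higher and 0 lower, beside 6.19% and 17.5% of all genes. Cxcl5, a Cxcr2 ligand that attracts neutrophils, was 0.745 ± 0.462 TPM in WT, 4.68 ± 1.68 in APP/PS1 water and 2.36 ± 1.17 with trazodone. Its log2 fold change was 2.09 ± 0.38 against WT (limma adjusted p = 0.00133), -0.91 ± 0.41 with trazodone against water (adjusted p = 0.151) and 1.19 ± 0.34 with trazodone against WT (adjusted p = 0.107). Pf4, a platelet and macrophage chemokine, gave 0.83 ± 0.30 in APP/PS1 water against WT (adjusted p = 0.0630), Ccl8 -1.24 ± 0.70 (adjusted p = 0.225), Ccl27a -0.54 ± 0.35 (adjusted p = 0.294) and Ccl21b -0.73 ± 0.51 (adjusted p = 0.335). Ccl27a overlaps Il11ra1 and Ccl21b has near-identical copies, so these values are uncertain. The other Cxcr3 ligands, Cxcl9 and Cxcl11, named for that role and outside the rule for named genes, averaged 0.0653 and 0.204 TPM and were not tested. The median of the 12 was -0.08, close to the -0.10 of all genes.

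Among genes that carry the signal of chemokine receptors, 13 were tested, of which 4 were called higher in APP/PS1 water against WT and 2 lower, beside 6.19% and 17.5% of all genes. Dock2, which activates Rac in migrating leukocytes, gave 1.14 ± 0.14 (limma adjusted p = 0.000111), and Pik3cg, the G-protein-driven PI3-kinase of leukocytes, gave 1.10 ± 0.18 (adjusted p = 0.000628). Rac2, a GTPase of blood-lineage cells, gave 0.82 ± 0.17 (adjusted p = 0.00357) and Rgs10, which ends G-protein signals, gave 0.56 ± 0.11 (adjusted p = 0.00270). Grk2, a kinase that desensitizes receptors, gave -0.35 ± 0.09 (adjusted p = 0.0120) and its relative Grk6, named after its value was seen, -0.22 ± 0.06 (adjusted p = 0.0167). After correction for GC and length the lower calls were lost (adjusted p = 0.600 and 0.545), and Gnai2, a G-protein subunit named after its value was seen, was called higher (0.33 in place of 0.09, adjusted p = 0.00707). The annotated span of Dock2 holds Fam196b, which has no entry of its own.

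Of 11 transcription factors of chemokine induction tested, 2 were called higher and 1 lower in APP/PS1 water against WT, beside 6.19% and 17.5% of all genes. Irf8 and Spi1 (PU.1), factors of the microglial lineage that are also among the 12 microglial markers, gave 1.502 ± 0.14 (limma adjusted p = 1.48e-05) and 1.12 ± 0.12 (adjusted p = 2.35e-05). Rela, an NF-kB subunit, gave -0.33 ± 0.09 (adjusted p = 0.0212), and 0.01 after correction for GC and length (adjusted p = 0.981). The subunit Nfkb2, named after its value was seen, went from 0.18 (adjusted p = 0.367) to 0.54 after that correction and was then called higher (adjusted p = 0.0116). Nfkb1 gave 0.23 ± 0.11 (adjusted p = 0.171) and Relb -0.20 ± 0.12 (adjusted p = 0.241). In trazodone against water, 2 of the 11 were called higher and 0 lower, beside 12.5% and 3.92% of all genes. These were Rela at 0.40 ± 0.10 (limma adjusted p = 0.0166) and Relb at 0.41 ± 0.13 (adjusted p = 0.0440). Neither was called after that correction (adjusted p = 0.901 and 0.705).

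Of 7 cytokines known to induce chemokines, 3 passed the minimum. All 3 were called higher in APP/PS1 water against WT, beside 6.19% of all genes. Il33, an alarmin that signals through the ST2 receptor named in the title of the study, gave 0.51 ± 0.09 (limma adjusted p = 0.00109), Il1a 1.07 ± 0.28 (adjusted p = 0.0129) and Il1b 0.67 ± 0.21 (adjusted p = 0.0331). Il33 was 48.7 ± 3.62 TPM in WT, 69.7 ± 7.37 in APP/PS1 water and 53.8 ± 5.05 with trazodone. It was called lower with trazodone against water at -0.37 ± 0.10 (adjusted p = 0.0183), and not after correction for GC and length (-0.25, adjusted p = 0.162). Il1b was also not called after the correction (adjusted p = 0.0636). The interferon gene Ifng was listed at 0 in 12 of the 13 libraries, and Tnf averaged 0.0781 TPM.

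The genes whose pattern over the 13 libraries was most like that of each called chemokine gene were ranked by the root mean square difference of log2(TPM + 0.5), each gene set to its WT mean. Nearest to Ccl3 were Itgax at 0.51, Clec7a at 0.55 and Ccl6 at 0.83. Nearest to Ccl4 were Gfap at 0.22, C4b at 0.25 and Trem2 at 0.39, and nearest to Ccl6 were Tyrobp at 0.67, Ccl4 at 0.70 and C4b at 0.70. Nearest to Ccl9 were Trim30a at 0.18, B2m at 0.21 and St8sia6 at 0.23. Nearest to Cxcl10 were Ly86 at 0.48, Tlr2 at 0.51 and Cd200r4 at 0.55, and nearest to Cxcl16 were Aspg at 0.20, Phf11d at 0.22 and Apobec1 at 0.26. Itgax and Clec7a, a phagocyte integrin and a pattern receptor, stood at 0.356 and 0.403 TPM in WT and at 22.8 and 29.7 TPM in APP/PS1 water. Among the 10 chemokine genes the closest pairs were Cxcl12 with Cx3cl1 at 0.38 and Ccl9 with Cxcl16 at 0.41. These distances describe the 13 libraries, which also differ in GC slope and microglial markers.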

How the data were processed

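Poly(A) RNA of mouse cortex was sequenced in 13 libraries as paired ends on either of 2 Illumina instruments, per the labels. The labels do not tie libraries to instruments. The submitters' processing notes name fastp, STAR, DESeq2 and GRCm38 (mm10), without versions. Annotation, counter and strand setting: not given in the sources used here. Values deposited by the authors are TPM and FPKM for 53832 entries, per the file headers. The TPM were used, and the FPKM gave an alternative and the estimated fragments.

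Entries with a mean of at least 0.5 TPM (18612) were fitted as log2(TPM + 0.5) in 1 model of the 3 groups by limma (version 3.58.1, R 4.3.3) using lmFit and a trended eBayes, two-sided, after a test on simulated data. Ccl2 came from a fit with a 0.1 TPM minimum. Permutation tests used Python 3.11.15. Positions are from GENCODE M21 by symbol and promoter windows from RefSeq (7 of 10 genes matched). The chemokine genes and lists were chosen with earlier results of these data known. All 10 genes and 7 receptors were named, of each other list up to 5 genes with the smallest p in APP/PS1 water against WT, and 3 most-like genes per called member. Some listed genes are not reported here.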

Additional observations from a re-analysis of the deposited data

Results flagged for a closer look

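Of 88 combinations of a gene with a group of 4 or 6 libraries, 11 held a library set far apart from the rest of its group by Dixon's test at 95%, which chance flags in about 1 of 20. Among the chemokine genes this was WT library 5, at 0.6535 TPM of Ccl4 (next 0.195) and 3.18 TPM of Cxcl10 (next 0.905), and the same library stood at 7.072 TPM of Ccl8 (next 1.37). WT library 6, the library with the most choroid plexus transcripts, stood at 16.45 TPM of Cx3cr1 (next 5.996) and at 27.81 TPM of Adam10 (next 45.1). WT library 1 was low for Rgs10 at 44.54 TPM. With trazodone, library 2 was high for Cxcr3 at 0.5012 TPM, library 4 low for Cxcr6 at 0.1907 TPM and high for Il1b at 1.394 TPM, and library 3 low for Spi1 at 10.42 TPM and for Rela at 22.83 TPM. The APP/PS1 water group of 3 libraries was too small for this test.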

How the results depend on the processing

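The 6 calls in APP/PS1 water against WT held under each alternative, and leaving out 1 library gave 6 to 7 calls there and 4 to 7 in trazodone against WT. The count of 0 lower in trazodone against water became 1 with array weights (Ccl6, -1.49, limma adjusted p = 0.0114) and with the replicate block on title numbers (Cxcl10, -0.93, adjusted p = 0.0401), and was 0 to 1 when 1 library was left out. Whether the replicate numbers pair the libraries could not be decided, since only 10 pairs shared a number and correlations were small. With a shared title number, 2 of 10 pairs had a correlation above 0.1 (mean 0.0299), against 3 of 44 without (mean -0.0068). For library name numbers these were 2 of 10 (mean 0.0104) and 3 of 44 (mean -0.00237). Over all genes the title-number block gave 1049 higher and 2978 lower in APP/PS1 water against WT, and a block on library name numbers 592 and 1720. GC and length correction gave 1164 and 1150 there, and 476 and 288 in trazodone against water in place of 2319 and 730, where median-ratio scaling gave 1665 and 1337. The Cxcl10 call in trazodone against WT ended without a minimum (adjusted p = 0.0926), with only the 2 groups compared (0.0610) and with the library-number block (0.121). Leaving out WT libraries 3 and 6 was chosen after seeing the data.

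The sign of several values turned, and the cause was not tested. Cxcl12 in APP/PS1 water against WT became 0.0086 with FPKM, 0.018 with median-ratio scaling, 0.044 with quantile normalization, 0.072 with the library-number block and 0.078 with GC correction, and ran from -0.38 to 0.11 when 1 library was left out. In trazodone against water, Ccl2 became 0.18 with a pseudocount of 0.1, 0.14 with array weights, 0.0031 with the library-number block, 0.034 with GC correction and 0.0042 with that and the title block, and ran from -0.19 to 0.33 when 1 library was left out. Ccl4 became -0.069 with array weights and -0.036 with GC correction and block (-0.11 to 0.31). Cxcl16 became -0.0060 with FPKM, -0.019 with median-ratio scaling, -0.0077 with quantile normalization, -0.013 without mitochondrial, ribosomal and hemoglobin genes, -0.0486 with GC correction and -0.0495 with the block added (-0.043 to 0.10). Cx3cl1 became -0.068 with GC correction and -0.12 with the block added. The ranges without 1 library were -0.52 to 0.071 for Ccl3 and -1.07 to 0.034 for Ccl12, and against WT -0.033 to 0.28 for Cxcl12 and -0.18 to 0.023 for Cx3cl1.

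Relative to microglial markers in APP/PS1 water against WT, Ccl9 became -0.14 with a pseudocount of 1 and -0.079 with 4 markers, and Cxcl16 -0.026 and -0.072. In trazodone against WT, Ccl9 became 0.21 with a pseudocount of 0.1 and 0.023 without WT libraries 3 and 6. Without 1 library the ranges were -0.26 to 0.049 for Ccl9 and -0.50 to 0.57 for Ccl12 there, and in trazodone against water -0.067 to 0.49 for Ccl2, -0.26 to 0.20 for Ccl3 and -0.86 to 0.21 for Ccl12. Low fragment numbers limit Ccl2, Ccl12 and the WT levels of Ccl3 and Ccl4, and 3 APP/PS1 water libraries limit both comparisons that use them.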
